A study of Mus musculus with 12 samples.

Results

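N6-methyladenosine (m6A) was compared between LPS-matured dendritic cells (maDC) and immature dendritic cells (imDC) at the sites where both carried a peak. Peaks of the 2 lists were paired when they lay on the same RefSeq transcript and their ranges shared 0.5 or more of the shorter peak's length. This gave 8602 pairs on 5227 transcripts, holding 8455 of the 17316 maDC peaks and 8447 of the 10517 imDC peaks, out of 40978 peaks in the whole series. The remaining 8861 maDC peaks and 2070 imDC peaks had no partner. The median overlap was 171 nucleotides, and in 90.2% of the pairs it covered 0.9 or more of the shorter peak. In 587 pairs a peak had several partners, so these pairs share values.

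maDC were imDC exposed to 100 ng/ml LPS for 24 h. imDC were CD11c+ cells selected with magnetic beads from bone marrow of C57BL/6 mice of 6 weeks, grown with GM-CSF at 10 ng/ml and IL-4 at 1 ng/ml, which maDC had received too. No allele or genotype differed between them. Each type had 2 replicates, each with 1 library of RNA bound by an anti-m6A antibody (IP) and 1 of polyadenylated input RNA, 8 libraries of the 12 in the series. The remaining 4 came from regulatory dendritic cells (DCreg), made by co-culture of maDC with spleen endothelial cells for 7 days. Marrow was pooled from several mice for each cell type, by the study's methods, and although the study calls the replicates biological, the labels do not say whether they came from separate cultures, so the spread between them may be technical. By the labels, replicate 1 of maDC and of imDC was prepared with a TruSeq kit and replicate 2 with NEBNext Ultra, whereas the methods name NEBNext Ultra alone.

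m6A is the most abundant internal modification of mRNA. It is written by a complex around METTL3 and METTL14 with the adaptor WTAP, mostly within a DRACH consensus of which GGACU is the best known form, and is read by YTH domain proteins that act on the decay, translation and splicing of the transcript. LPS is sensed by TLR4 and drives dendritic cells to display MHC and co-stimulatory molecules, to secrete cytokines and to respond to their own type I interferon. In meRIP-seq, fragments bound by the antibody are counted against input. The value used here is the log2 enrichment given by the authors, IP over input, both scaled to the transcript's own median window. It is thus relative to the rest of the transcript and is not a level of the mRNA. A peak entered a list only where both replicates reached 1 on this scale, so a pair has all 4 values at 1 or above and sites that fell below this in 1 cell type are outside the comparison.

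The motif GGACT, the DNA form of GGACU, was listed in the maDC peak of 35.2% of the pairs. The stretches below show it in a few of the paired peaks described further on, with 10 bases on each side and the motif in capitals. They include sites where both maDC replicates exceeded both imDC replicates (Cmpk2, Fam208b), sites with the reverse order (Rab11b, Oxsr1, Ank), co-stimulatory genes (Cd40, Cd80) and sites where all 4 values lay close together (Ptk2b, Khsrp). They were read from the RefSeq annotation of GRCm38, the assembly also named mm10, and are written 5′ to 3′ on the strand of the transcript.
Cmpk2, 3′UTR, chr12:26478248-26478272, plus strand: aaaaaactggGGACTgagcagtttg
Fam208b, CDS, chr13:3590288-3590312, minus strand: ctgctgctttGGACTtgttggcaga
Rab11b, stop codon peak, chr17:33747544-33747568, minus strand: ggcagtcctgGGACTcactctgtca
Oxsr1, start codon peak, chr9:119322052-119322076, minus strand: tcatgtccgaGGACTcgagcgccct
Ank, 5′UTR, chr15:27466807-27466831, plus strand: cagcggggatGGACTtgagctcgcg
Cd40, stop codon peak, chr2:165070961-165070985, plus strand: ctggctctgaGGACTgcttgctgac
Cd80, CDS, chr16:38474027-38474051, plus strand: tataagaaccGGACTttatatgaca
Ptk2b, 3′UTR, chr14:66153849-66153873, minus strand: tggacagaaaGGACTctgggcacag
Khsrp, 3′UTR, chr17:57022480-57022504, minus strand: caggatgtggGGACTgtgctgggtg

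The replicates of a cell type were not the most alike. Across the 8602 pairs, Pearson's r was 0.656 between maDC replicates 1 and 2 and 0.385 between imDC replicates 1 and 2, while maDC replicate 1 and imDC replicate 2 had 0.858. maDC replicate 2 had 0.652 with imDC replicate 2 and 0.352 with imDC replicate 1. imDC replicate 1 therefore stood apart from each of the other columns, with r between 0.352 and 0.385. Spearman's rank correlation had the same order, with 0.839 for maDC replicate 1 and imDC replicate 2 and 0.316 to 0.340 for imDC replicate 1 with the rest. Each r here runs across peaks, and peaks of 1 library are no replicates of it. The median absolute difference was 0.25 between maDC replicate 1 and imDC replicate 2, 0.49 between the maDC replicates and 0.59 between the imDC replicates. imDC replicate 1 also had the longest upper tail, with 98 values above 5, against 8 and 58 in maDC replicates 1 and 2 and 4 in imDC replicate 2. Among its peaks 34.1% had a value that another paired peak also had, against 5.85% and 12.6% in maDC replicates 1 and 2 and 8.32% in imDC replicate 2. The reads behind a value are not given in the sources used here, so its precision is unknown. The replicate number of a column was taken from its heading in the list and the cell type from the labels. No label ties a library to a column, and a swap of columns between the lists was not tested. Because of this, values are given below column by column, and most medians over groups of pairs are also given for maDC replicate 1 minus imDC replicate 2.

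**Figure D1:**
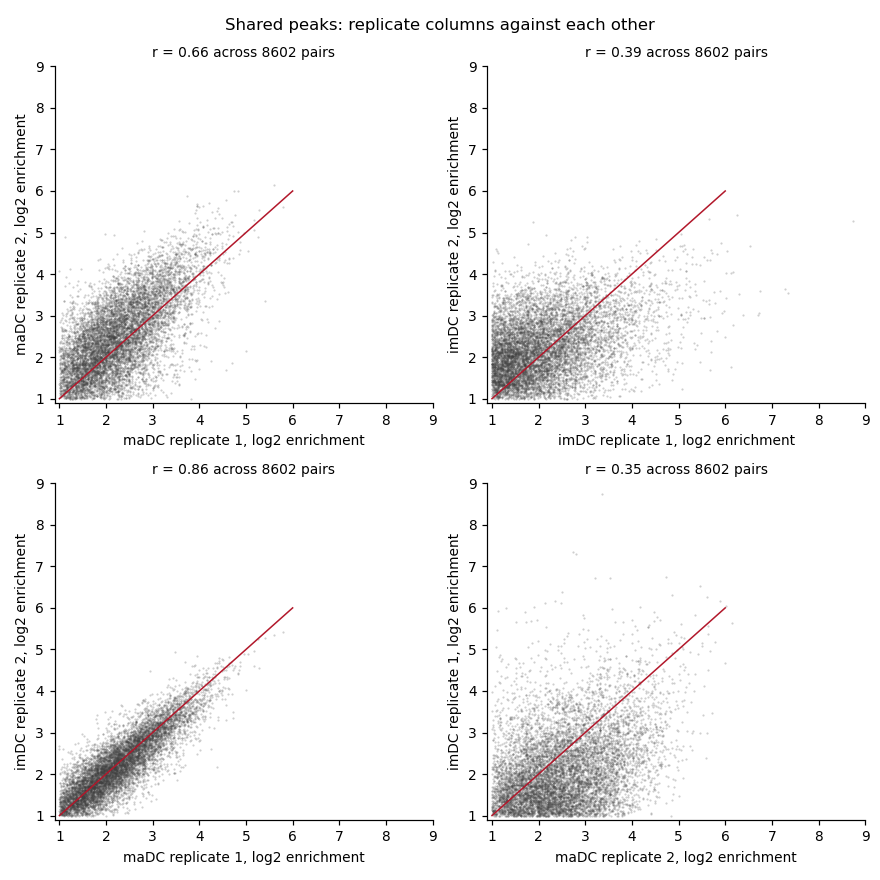
Log2 enrichment of the 8602 shared peaks in 1 replicate column (x axis) against another (y axis), each point a pair, the line marking equal values. The cloud is narrowest for maDC replicate 1 against imDC replicate 2 (r 0.858) and wide in each panel with imDC replicate 1.

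Over all shared peaks, enrichment was somewhat higher in maDC. The median over pairs was 2.21 in maDC replicate 1 and 2.46 in maDC replicate 2, against 1.95 in imDC replicate 1 and 2.18 in imDC replicate 2. The 2 maDC medians lay above both imDC medians, the lower of them by a narrow margin. The median difference of a pair, maDC minus imDC, was 0.21 on the log2 scale (SD across pairs 0.56), and 65.7% of the pairs had a difference above 0. An exact two-sided permutation test of the 4 medians gave p = 0.333, the smallest p that 2 replicates against 2 can give. Taken by columns, the median difference was 0.18 for the replicate 1 columns, 0.28 for the replicate 2 columns, 0.41 for maDC replicate 2 minus imDC replicate 1 and 0.02 for maDC replicate 1 minus imDC replicate 2. With each column centred on its median it was -0.06, so signs of single pairs depend on the scaling.

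No single pair passed the test. limma with Benjamini-Hochberg adjustment called 0 of 8602 pairs at an adjusted p under 0.05 (0% of all pairs), with a lowest adjusted p of 0.971. At an unadjusted p under 0.05 it listed 323 pairs (3.75%), 234 of them higher and 89 lower in maDC. Left without imDC replicate 2, so that the lone imDC column was replicate 1 and was assumed to vary like maDC, the same fit called 117 pairs, 51 higher and 66 lower in maDC. Without any of the other 3 columns it called 0. Pairs in which both maDC values lay above both imDC values numbered 2043 (23.8% of all pairs), and 659 (7.66%) had both maDC values below. The gap between the lowest value of one cell type and the highest of the other exceeded 0.5 in 303 pairs in favour of maDC and 49 in favour of imDC, and exceeded 1 in 29 and 0 pairs. These counts carry no replicate error of their own.

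The difference was not even along the mRNA. Peaks at the stop codon (1222 pairs) had medians of 2.38 and 2.77 in maDC replicates 1 and 2, against 1.91 and 2.37 in imDC replicates 1 and 2, with a median difference of 0.38. In the 3′UTR (1959 pairs) they were 2.35 and 2.58 in maDC and 1.91 and 2.23 in imDC, with a difference of 0.33. Coding sequence peaks (CDS, 3324 pairs) had 2.10 and 2.53 in maDC and 1.92 and 2.12 in imDC, with a difference of 0.21, and here the groups overlapped. Start codon peaks (1197 pairs) had 2.15 and 2.07 in maDC and 1.93 and 2.10 in imDC, with a difference of 0.03. The 5′UTR (809 pairs) was the only class of the 6 with a negative difference, at -0.07, from 2.27 and 2.04 in maDC and 2.25 and 2.20 in imDC. Noncoding transcripts (91 pairs) had 2.04 and 2.44 in maDC and 2.01 and 1.998 in imDC, with a difference of 0.19. The exact two-sided permutation test over the 4 replicates gave p = 0.333 for the stop codon, the 3′UTR and noncoding transcripts, 0.667 for the CDS and the start codon and 1 for the 5′UTR, or 0.667, 0.8 and 1 after adjustment over the 6 classes.

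Non-overlapping pairs followed the same order of classes. Both maDC values were above both imDC values in 30.0% of the stop codon pairs, 27.9% of the 3′UTR pairs and 24.3% of the CDS pairs, but in 16.5% of the start codon pairs and 13.6% of the 5′UTR pairs. Both were below in 4.34%, 5.41%, 6.71%, 12.1% and 15.8% of these classes in the same order, so that in the 5′UTR pairs lower in maDC were slightly more numerous than pairs higher in maDC (128 against 110). The contrast between the ends was seen in both comparisons of columns with the same number. For the replicate 1 columns the median difference was 0.363 at the stop codon and -0.0344 in the 5′UTR. For the replicate 2 columns it was 0.408 and -0.0951. The contrast was widest between maDC replicate 2 and imDC replicate 1. The stop codon median minus the 5′UTR median was 0.73 in maDC replicate 2 and 0.10 in maDC replicate 1, against -0.35 in imDC replicate 1 and 0.17 in imDC replicate 2 (exact two-sided permutation p = 0.667). For maDC replicate 1 minus imDC replicate 2, a comparison added after seeing the data, the class medians lay between -0.02 in the CDS and 0.08 in the 3′UTR. In 423 pairs the peaks were listed under different classes, most often a start codon peak in maDC with a 5′UTR peak in imDC (86 pairs).

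**Figure D2:**
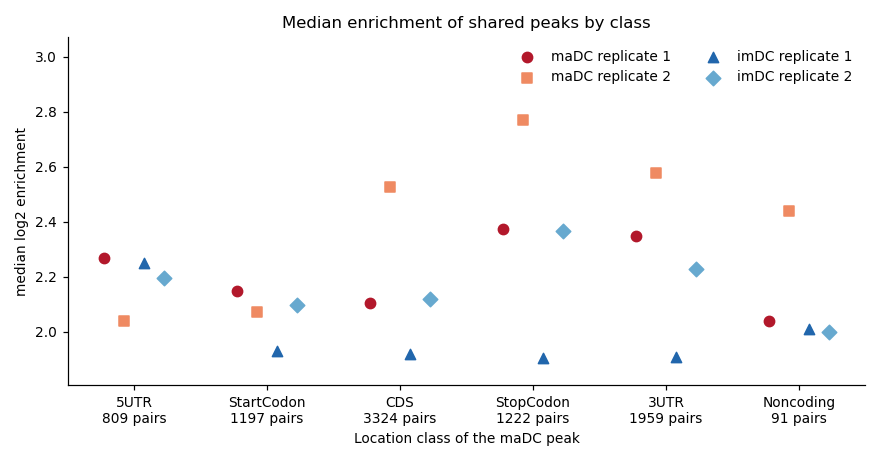
Median log2 enrichment (y axis) of the shared peaks by the Location class of the maDC peak (x axis, with the number of pairs), 1 point per replicate column. maDC replicate 2 is highest from the CDS to the 3′UTR, imDC replicate 1 is lowest from the start codon to the 3′UTR, and maDC replicate 1 and imDC replicate 2 lie close to each other in each class.

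Distance from the 5′ end of the transcript gave the same picture on a finer scale. Among the 417 pairs centred within the first 100 nucleotides, the medians were 2.30 and 1.85 in maDC replicates 1 and 2, against 1.86 and 2.22 in imDC replicates 1 and 2. For the 2300 pairs centred between 1601 and 3200 nucleotides they were 2.26 and 2.64 in maDC and 1.87 and 2.25 in imDC. maDC replicate 2 thus increased with distance, to 2.66 beyond 3200 nucleotides, whereas imDC replicate 1 was highest between 201 and 400 nucleotides, at 2.20, and 1.89 beyond 3200. The median difference was -0.02 in the first 100 nucleotides and 0.36 beyond 3200, while for maDC replicate 1 minus imDC replicate 2 it stayed between -0.01 and 0.06 in each of the 7 bins.

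**Figure D3:**
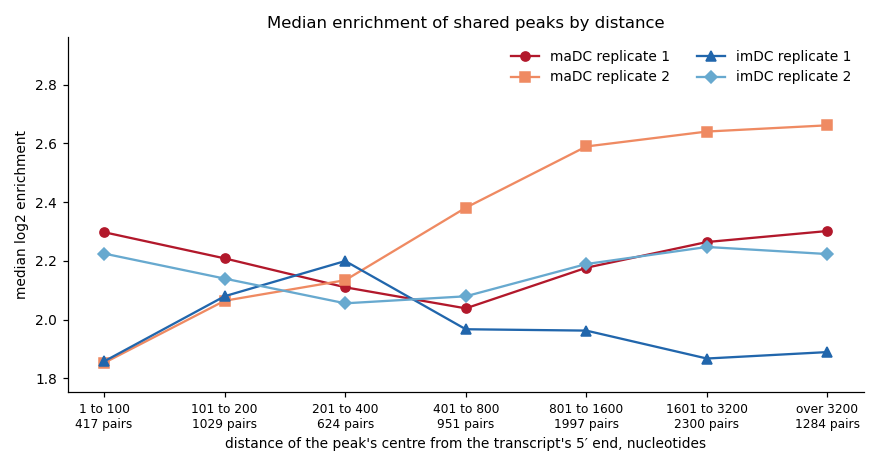
Median log2 enrichment (y axis) of the shared peaks by the distance of the peak's centre from the 5′ end of the transcript (x axis, 7 bins with the number of pairs), 1 line per replicate column. The lines of maDC replicate 1 and imDC replicate 2 run together, and those of maDC replicate 2 and imDC replicate 1 part beyond 400 nucleotides.

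Pairs with the motif had higher values in all 4 columns. With 2 or more GGACT in the maDC peak (704 pairs) the medians were 2.47 and 2.78 in maDC and 2.04 and 2.46 in imDC. With none (5573 pairs) they were 2.16 and 2.37 in maDC and 1.93 and 2.13 in imDC. The median difference was 0.37 with 2 or more motifs, 0.25 with 1 and 0.16 with none. Within stop codon pairs it was 0.45 with the motif and 0.34 without, and within 5′UTR pairs 0.00 with it and -0.10 without. For maDC replicate 1 minus imDC replicate 2 the 3 medians were 0.04, 0.02 and 0.01. Pairs whose site also carried a DCreg peak (66.6% of the pairs) had a median difference of 0.25, against 0.13 where the transcript had one elsewhere (1766 pairs) and 0.16 where it had none (1107 pairs). For maDC replicate 1 minus imDC replicate 2 the order did not hold, with 0.0225, 0.0035 and 0.0267. Short maDC peaks, under 150 nucleotides (485 pairs), had a median difference of 0.02, against 0.25 for those of 300 or more (951 pairs), and this contrast too was small for maDC replicate 1 minus imDC replicate 2, at -0.0499 and -0.0134. At the 5729 sites shared with DCreg, DCreg replicate 1 had r of 0.690 with maDC replicate 2 and 0.655 with maDC replicate 1, against 0.418 and 0.636 with imDC replicates 1 and 2. DCreg replicate 2 had a different order, with 0.292 and 0.321 for maDC replicates 1 and 2, against 0.431 and 0.260 for imDC replicates 1 and 2. Between the DCreg replicates r was 0.506.

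Pairs are named below by the gap between the cell types, with none of them past the test (adjusted p = 0.971 for each in limma). The widest gap was at Cmpk2, a mitochondrial nucleotide kinase induced by interferon. Its 3′UTR peak at nucleotides 1526 to 1718 (chr12:26478174-26478366), which holds the motif window above, had 4.39 and 4.71 in maDC, against 2.36 and 2.17 in imDC, a difference of 2.28 (SE 0.71). A further 3′UTR peak of Cmpk2 at 1867 to 2031, with no GGACT, had 3.51 and 3.65 in maDC, against 2.10 and 2.25 in imDC. In both, each pair of replicates lay close together and far from the other cell type, and neither site nor transcript had a DCreg peak. Nos2, the inducible nitric oxide synthase, had 3.07 and 2.94 in maDC, against 1.12 and 1.40 in imDC, in its 3′UTR at 3763 to 3927 (difference 1.75, SE 0.64).

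Other pairs with high maDC values included genes of inflammation. Cxcl3, a chemokine for neutrophils, had 4.73 and 4.91 in maDC at its start codon (nucleotides 25 to 189), against 1.68 and 3.36 in imDC, a difference of 2.30 (SE 0.72) of which imDC replicate 1 set a large part. Without that replicate the difference was 1.46. Aoah, an enzyme that inactivates LPS by removing its acyl chains, had 2.47 and 2.43 in maDC in its 5′UTR (60 to 218), against 1.01 and 1.06 in imDC. Nt5c3, a pyrimidine nucleotidase, had 3.59 and 5.08 in maDC in its 3′UTR (1128 to 1288), against 2.35 and 2.07 in imDC, and here the maDC replicates were further apart than those of imDC. Abl2, a tyrosine kinase that acts on the cytoskeleton, had 3.45 and 3.92 in maDC at the stop codon, against 1.07 and 2.03 in imDC. At Abl2 the overlap was under 0.5 of the longer peak, and a peak of the pair had several partners. The CDS peak of Otud4, a deubiquitinase, had 2.89 and 3.32 in maDC, against 1.64 and 1.57 in imDC, but spanned nucleotides 2996 to 3539 in maDC and 3334 to 3523 in imDC.

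The list of 10 also held nuclear factors. Fam208b, named for a protein family and related to the silencing factor TASOR, had 3.62 and 3.68 in maDC in its CDS (chr13:3590219-3590409), against 1.42 and 2.17 in imDC. A peak of this Fam208b pair had several partners. Bdp1, a subunit of the RNA polymerase III factor TFIIIB, had 2.97 and 3.20 in maDC at its start codon, against 1.04 and 1.49 in imDC. Its peak ran over 12 to 276 in maDC and 152 to 275 in imDC, so that the values cover different stretches.

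With maDC below imDC the gaps were narrower, none above 1. Plekhg3 had 2.36 and 2.14 in maDC at 4422 to 4627, against 3.35 and 3.40 in imDC, where the peak began earlier, at 4245 across the stop codon (difference -1.13, SE 0.68). Rab11b, a GTPase of recycling endosomes, had 1.44 and 1.17 in maDC at its stop codon, against 3.26 and 2.38 in imDC (difference -1.51, SE 0.62). Pvrl1, which encodes the adhesion molecule nectin-1, had 1.39 and 1.14 in maDC within its first 100 nucleotides, against 3.28 and 2.30 in imDC. At all 3 sites both maDC values lay below both imDC values, which the choice by gap fixes. Oxsr1, a kinase of cation chloride cotransporters, had 1.75 and 1.16 in maDC at 314 to 432, against 3.34 and 2.65 in imDC. The imDC peak, at 27 to 377, also covered an upstream maDC peak at 26 to 313 with 3.41 and 1.84, so that this pair depends on where the peaks were split. Ank, a membrane protein of pyrophosphate export, had 2.79 and 2.61 in maDC in its 5′UTR (chr15:27466738-27466908), against 3.67 and 3.77 in imDC.

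The other 5 of these pairs lay in the 5′UTR or the CDS. Suz12, a subunit of Polycomb repressive complex 2, had 1.32 and 1.22 in maDC at 251 to 468, against 2.10 and 2.35 in imDC. Slc44a1, a choline transporter, had 2.77 and 1.90 in maDC in its 5′UTR, against 3.58 and 3.49 in imDC. Il4ra, the alpha chain of the IL-4 receptor, had 2.04 and 2.36 in maDC in its CDS (chr7:125576066-125576231), against 3.08 and 3.33 in imDC, a difference of -1.004 (SE 0.68). Cluh, which binds mRNAs of mitochondrial proteins, had 1.28 and 1.39 in maDC, against 2.14 and 2.18 in imDC. At Suz12 and Cluh the overlap was under 0.5 of the longer peak, and a peak of the pair had several partners. Tmco4 had 1.24 and 1.23 in maDC, against 1.99 and 2.09 in imDC. The maDC replicates were furthest apart in Slc44a1 among these 5.

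**Figure D4:**
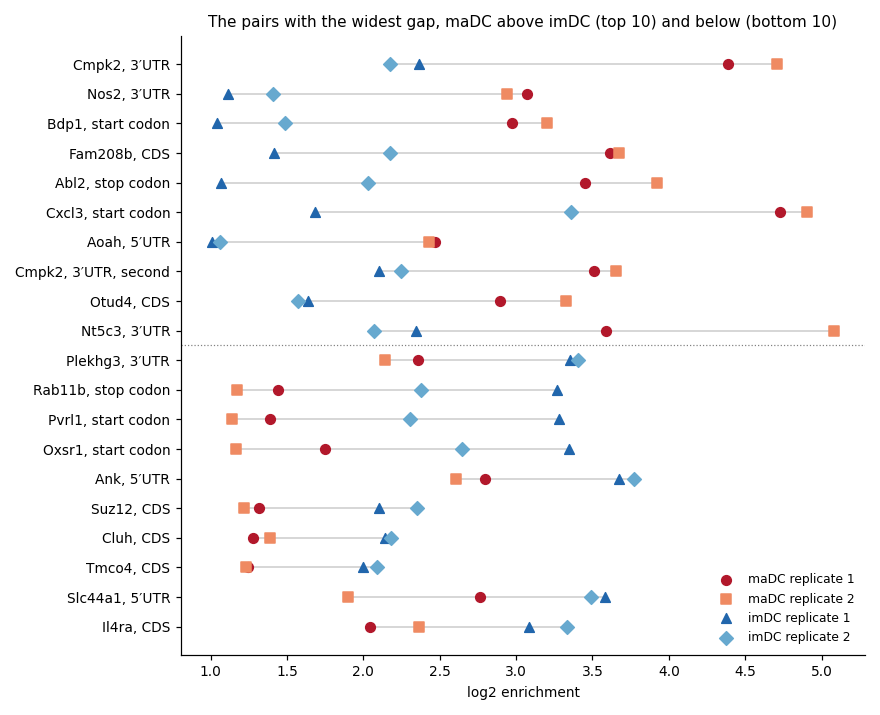
Log2 enrichment (x axis) in each replicate column at the 10 pairs with the widest gap with maDC above imDC (upper rows) and the 10 with maDC below imDC (lower rows). In the first row, Cmpk2, the maDC points lie at 4.39 and 4.71 and the imDC points at 2.36 and 2.17.

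The 6 lowest unadjusted p values included Cmpk2 and Cxcl3, and the other 4 were at sites where imDC replicate 1 was far above imDC replicate 2. Some of these are named here after their values were seen. Cd274, which encodes the PD-1 ligand PD-L1, had 1.91 and 1.31 in maDC in its 3′UTR at 2529 to 2800, against 6.01 and 2.50 in imDC (difference -2.64, SE 0.69, limma adjusted p = 0.971). Ppp2ca, the catalytic subunit of protein phosphatase 2A, had 2.85 and 1.13 in maDC in its 5′UTR, against 5.92 and 3.06 in imDC. In both genes imDC replicate 2 was nearer to maDC replicate 1 than to imDC replicate 1. E2f1, a transcription factor of the G1 to S transition, had 1.30 and 1.19 in maDC in its 3′UTR, against 4.73 and 1.97 in imDC.

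Averaged over the pairs of a transcript, 0 of 5227 transcripts passed limma at an adjusted p under 0.05 (0%, lowest adjusted p 0.966), and 169 (3.23%) had an unadjusted p under 0.05, 141 higher and 28 lower in maDC. Both maDC means were above both imDC means in 1305 transcripts (25%) and below in 379 (7.25%). The widest gaps upward were at Cmpk2, Nos2, Cxcl3, Aoah and Nt5c3, and of these only Cmpk2 had more than 1 pair, with means of 3.95 and 4.18 in maDC and 2.23 and 2.21 in imDC. The widest downward were at Rab11b, Fam177a2, Nelfe, Synj2 and E2f1, each with 1 pair. Nelfe, a subunit of the negative elongation factor NELF, had 1.17 and 1.23 in maDC, against 2.02 and 1.92 in imDC. Synj2, an inositol phosphatase of endocytosis, had 1.20 and 1.16 in maDC, against 4.22 and 1.88 in imDC, with imDC replicate 1 again far above the rest.

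Of the 2123 transcripts with 2 or more pairs, 854 had a difference above 0 in each of their pairs and 239 in none. The median range of the differences within such a transcript was 0.55. Kmt2d, a histone H3 lysine 4 methyltransferase, had the most pairs, 16, of which 12 had a difference above 0 and 5 did not overlap between cell types, all with maDC higher. Its differences ran from -0.31 to 0.79, and its means were 1.95 and 2.61 in maDC, against 2.05 and 1.86 in imDC. Kmt2a, another methyltransferase of the same family, had 8 pairs with differences from -0.51 to 0.58, and Ptprj, a receptor tyrosine phosphatase, had 8 with a wider range, from -1.46 to 1.58. At its 5′ end (78 to 361) the maDC peak of Ptprj had 3.07 and 1.52, against 4.78 and 2.72 in 1 overlapping imDC peak and 4.32 and 2.94 in another. At its stop codon (4091 to 4265) it had 2.24 and 3.90 in maDC, against 1.28 and 1.69 in imDC.

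Pairs in both directions were held by 105 of the 2123 transcripts with 2 or more pairs. Each of these transcripts had at least 1 pair with both maDC values above and at least 1 with both below. In 65 of them each lower pair lay 5′ of each higher pair, in 29 the order was the reverse, and 11 were mixed. Among peaks with 1 partner each, the numbers were 52, 26 and 3 of 81. Over all transcripts the non-overlapping pairs had the same order. Their median centre was 620 nucleotides from the 5′ end where maDC was lower and 1621 where it was higher. Jak2, the kinase of many cytokine receptors, had 1.27 and 1.00 in maDC in its 5′UTR (208 to 360), against 3.97 and 1.699 in imDC. In its 3′UTR (4656 to 4838) it had 3.23 and 3.85 in maDC, against 1.94 and 3.23 in imDC. Oxsr1, low in maDC at its start codon as above, had 3.29 and 4.14 in maDC in its 3′UTR (2832 to 2994), against 2.36 and 3.19 in imDC. Csf1, the growth factor of macrophages, had 1.57 and 1.67 in maDC in its CDS (1187 to 1407), against 2.61 and 2.13 in imDC, and 2.06 and 1.91 in maDC in its 3′UTR (2849 to 3067), against 1.72 and 1.63 in imDC. These transcripts were picked from the 105 after their values were seen.

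Genes were also read by pathway. None of the pairs of any list passed the test, and the counts of non-overlapping pairs stand against 23.8% higher and 7.66% lower over all pairs. For maDC replicate 1 minus imDC replicate 2 most list medians were nearer to 0. That of NLR signaling and the inflammasome was 0.21, of MHC presentation 0.13, of JAK-STAT genes 0.10 and of interferon-stimulated genes 0.0909. Those of the histone enzymes (0.0554), the m6A machinery (0.0536), the dendritic cell transcription factors (0.0403), the NF-κB pathway (0.0180), cytokines (0.0080), the mitochondrial ribosome (0.0056) and TLR signaling (-0.0040) were close to 0. The negative regulators had -0.0158, chemokines -0.0629, cell cycle genes -0.0714, co-stimulatory molecules -0.0952 and cytokine receptors -0.20. Among the marker lists, neutrophil markers had 0.13, against -0.30 over all 4 columns, macrophage markers -0.0598, against 0.17, and dendritic cell markers -0.0610, against 0.02. Of 59 pairs on 29 interferon-stimulated genes, 35 had a difference above 0 (median 0.16), 20 were higher in maDC with no overlap and 5 lower. Besides Cmpk2, Rsad2, the antiviral enzyme viperin, had 4.49 and 4.74 in maDC at its stop codon, against 2.59 and 3.81 in imDC. Gbp2, a guanylate binding protein, went the other way in its CDS, with 1.37 and 1.24 in maDC, against 4.03 and 1.59 in imDC. NLR signaling and the inflammasome had 14 pairs on 7 genes, 11 with a difference above 0 (median 0.40). With no overlap, 7 were higher and 0 lower. Nlrc5 alone supplied the pairs with differences of 0.77, 0.61, 0.51 and 0.94. The same Nlrc5 pairs are also counted under MHC presentation, so the 2 lists are not independent. Ripk2, the kinase downstream of NOD1 and NOD2, had 2.16 and 3.43 in maDC in its CDS, against 1.16 and 1.04 in imDC, and Nlrc5, an activator of MHC class I genes, had 2.44 and 2.85 in maDC in its 3′UTR, against 1.19 and 2.21 in imDC.

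MHC class I and II presentation had 24 pairs on 16 genes, 17 with a difference above 0 (median 0.27), 11 higher with no overlap and 2 lower. Marchf1, the ubiquitin ligase that takes MHC class II and CD86 off the cell surface, had 3.24 and 3.81 in maDC in its 3′UTR (1470 to 1639), against 1.20 and 2.69 in imDC. At a CDS site of Marchf1 the values were 2.78 and 4.57 in maDC, against 1.79 and 2.83 in imDC, so that imDC replicate 2 overlapped maDC. Negative regulators of TLR and cytokine signaling had 46 pairs on 25 genes, 29 above 0 (median 0.25), 14 higher with no overlap and 2 lower. Among these, Socs3, an inhibitor of JAK kinases, had 2.53 and 4.01 in maDC at one 3′UTR site (1407 to 1580), against 2.07 and 2.37 in imDC, and 3.099 and 3.29 in maDC at the next (1581 to 1751), against 1.94 and 2.84 in imDC. Cyld, a deubiquitinase that restrains NF-κB, had 2.99 and 4.15 in maDC in its CDS, against 1.99 and 2.68 in imDC. At each of these Socs3 and Cyld sites both maDC values lay above both imDC values.

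TLR signaling had 25 pairs on 17 genes with a median difference of -0.04, 6 higher with no overlap and 3 lower. Traf3, a ubiquitin ligase of the interferon branch, had 3.06 and 3.60 in maDC in the CDS (1704 to 1967), against 1.74 and 2.05 in the imDC peak at 1875 to 1996 and 2.29 and 3.17 in the imDC peak at 1680 to 1874. In its 3′UTR it had 3.098 and 3.88 in maDC, against 1.74 and 2.90 in imDC. At the CDS site of Traf3 the groups thus overlapped for the imDC peak at 1680 to 1874 but not for the one at 1875 to 1996. They did not overlap at its 3′UTR site, and its 5′UTR pair had a difference of -0.41. Irak2, a kinase of the MyD88 complex, had 2.73 and 3.40 in maDC at 2139 to 2313, against 1.03 and 2.48 in imDC, and a difference of -0.44 at its later 3′UTR site. Tlr9, the receptor of unmethylated CpG DNA, had 1.33 and 1.03 in maDC at 2477 to 2644, against 3.30 and 1.33 in imDC, a difference of -1.14 in which imDC replicate 1 stood apart. The NF-κB pathway had 31 pairs on 18 genes (median 0.21, 7 higher and 3 lower with no overlap). Nfkb2, the p100 precursor of the p52 subunit, had 2.12 and 1.64 in maDC over its start codon (57 to 375), against 3.11 and 2.71 in the imDC peak at 57 to 219 but 1.27 and 1.096 in the imDC peak at 220 to 407, so its direction depended on the partner. Nfkb1, the p105 precursor, had 3.34 and 4.18 in maDC in its 5′UTR, against 6.01 and 3.42 in imDC.

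Cytokine receptors had 41 pairs on 17 genes with a median of -0.01, 5 in each direction with no overlap. Il2ra, the alpha chain of the IL-2 receptor, had 4.55 and 4.34 in maDC in its 3′UTR, against 1.53 and 4.08 in imDC, so that 3 of the 4 columns were close. Il10ra, a chain of the receptor of the inhibitory cytokine IL-10, had 2.44 and 2.46 in maDC, against 4.32 and 2.44 in imDC, likewise set apart by imDC replicate 1. Cytokines themselves had few shared sites, 11 pairs on 6 of the 22 listed genes, though 12 had a maDC peak. At its stop codon Tnf had 1.77 and 1.96 in maDC, against 1.23 and 1.72 in imDC (difference 0.39, SE 0.44). Chemokines and their receptors had 12 pairs (median -0.07). Ccr7, the receptor that guides mature dendritic cells to lymph nodes, had 3.01 and 3.33 in maDC in its 3′UTR, against 4.01 and 3.08 in imDC, with overlapping groups. JAK-STAT genes had 17 pairs, 5 higher and 2 lower with no overlap (median 0.20).

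The m6A machinery had 25 pairs on 11 genes, 17 with a difference above 0 (median 0.15), 6 higher with no overlap and 2 lower. The reader Ythdc1 had 2.89 and 1.99 in maDC within its first 100 nucleotides, against 5.20 and 2.95 in imDC, but 2.99 and 4.03 in maDC in its CDS at 682 to 863, against 2.72 and 2.56 in imDC. Prrc2a, another reader, had 3.68 and 2.53 in maDC in its CDS at 3242 to 3418, against 5.14 and 3.62 in imDC, the widest difference of its 5 pairs. The cytoplasmic reader Ythdf3 had 4.21 and 5.71 in maDC in its CDS, against 3.47 and 4.17 in imDC, and a difference of -0.12 in its 5′UTR. Ythdf2 had 2.52 and 2.68 in maDC, against 1.01 and 2.15 in imDC. Readers thus had sites in both directions. Alkbh5, a demethylase of m6A, had 2.10 and 2.87 in maDC in its 5′UTR (364 to 599), against 1.20 and 1.89 in imDC, and 2.82 and 2.84 in maDC at its stop codon, against 2.47 and 2.62 in imDC. Groups did not overlap at these sites, with a difference of 0.94 (SE 0.61) at the first and 0.29 (SE 0.68) at the second. They did overlap at its start codon site (600 to 774), with 2.72 and 3.46 in maDC, against 2.74 and 2.38 in imDC.

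Histone methyltransferases and demethylases had 95 pairs on 27 genes, 66 above 0 (median 0.29), 29 higher with no overlap and 6 lower. Kdm3a, a demethylase of histone H3 lysine 9, had 3.05 and 3.21 in maDC in its CDS, against 1.25 and 1.88 in imDC. Transcription factors of dendritic cell lineages had 41 pairs, 32 above 0 (median 0.26), 7 higher and 2 lower with no overlap. Batf, an AP-1 family factor, had 3.25 and 2.77 in maDC in its 3′UTR, against 1.43 and 2.60 in imDC, and Runx3 had 1.14 and 1.03 in maDC in its 3′UTR, against 3.13 and 1.099 in imDC, but a difference of 0.45 at its stop codon. The mitochondrial ribosome had 17 pairs, 13 above 0 (median 0.32), 3 higher and 1 lower with no overlap. Cell cycle genes had 28 pairs with a median of -0.12, 5 higher and 6 lower with no overlap, E2f1 among the lower. Ccnd2, cyclin D2, had 1.31 and 1.82 in maDC in its 3′UTR at 1860 to 1975, against 2.84 and 2.40 in imDC, whereas its other 4 pairs had differences between -0.24 and 0.13.

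**Figure D5:**
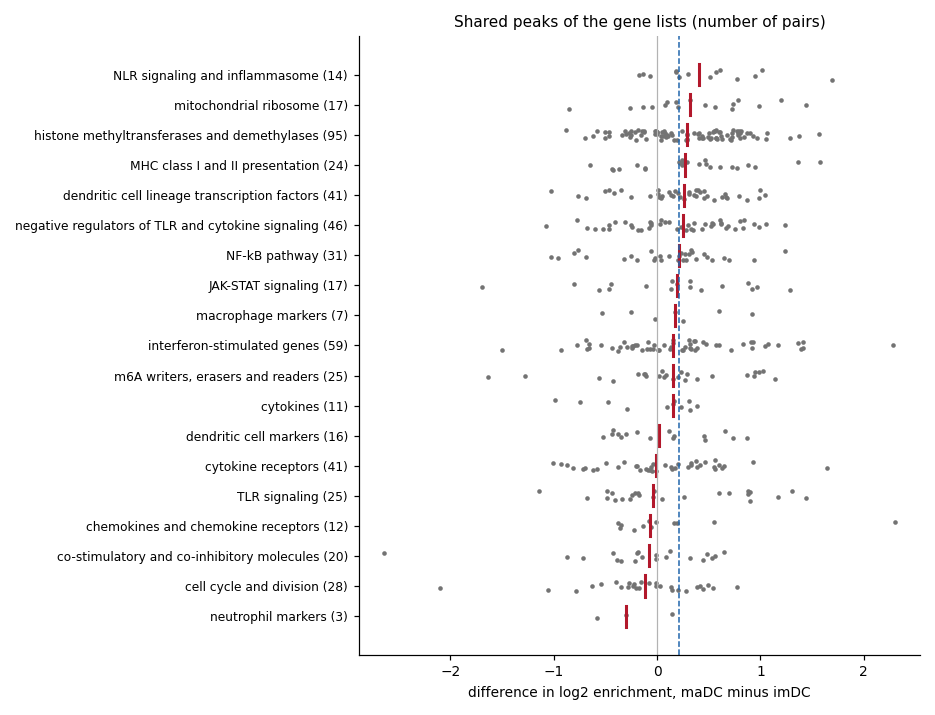
Difference in log2 enrichment, maDC minus imDC (x axis), of each shared peak (points) in the gene lists (rows, with the number of pairs). Red bars mark the median of a list, from 0.40 for NLR signaling and the inflammasome to -0.30 for neutrophil markers, and the dashed line the median over all 8602 pairs, 0.21.

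Co-stimulatory and co-inhibitory molecules had 20 pairs on 13 genes, 8 with a difference above 0 (median -0.08), 2 higher with no overlap and 3 lower. Cd40, the receptor of CD40 ligand, had 4.84 and 4.49 in maDC at its stop codon (chr2:165070854-165071020), against 4.18 and 4.51 in imDC, so that the groups overlapped (difference 0.32, SE 0.77). In its 3′UTR (1310 to 1481) it had 3.00 and 2.16 in maDC, against 1.52 and 2.51 in imDC. Cd80, a ligand of CD28, had 1.42 and 1.78 in maDC at its CDS site (380 to 554), against 1.89 and 1.73 in imDC, and 3.45 and 2.52 in maDC in its 3′UTR (1294 to 1469), against 4.06 and 3.34 in imDC. Cd86, the other ligand of CD28, had 1.93 and 1.78 in maDC at 1763 to 2065, against 1.71 and 2.01 in imDC, and a difference of -0.02 at its later site. Groups overlapped at each of these Cd40, Cd80 and Cd86 sites. Icosl, the ligand of ICOS, had 3.26 and 3.98 in maDC, against 2.48 and 3.46 in imDC.

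10 of the 20 genes that the study singles out had a shared pair. Of their 18 pairs, 10 had a difference above 0 (median 0.31, or 0.18 for maDC replicate 1 minus imDC replicate 2). With no overlap, 6 were higher in maDC (33.3%, against 23.8% over all pairs) and 1 was lower (5.56%, against 7.66%). H2-Eb2, which encodes a beta chain of MHC class II, had 2.10 and 2.86 in maDC in its 3′UTR, against 1.03 and 2.99 in imDC. Myd88, the adaptor of most TLRs, had 1.32 and 1.73 in maDC at its start codon, against 2.71 and 1.32 in imDC. Map3k7, which encodes the kinase TAK1, had 1.696 and 1.51 in maDC, against 1.87 and 1.42 in imDC. At these H2-Eb2, Myd88 and Map3k7 sites the groups overlapped. Itgam, the CD11b integrin chain, had 3.90 and 3.89 in maDC in its 3′UTR (3665 to 3840), against 3.53 and 3.34 in imDC, with no overlap between the groups and a difference of 0.46 (SE 0.72). In its CDS (692 to 962) Itgam had the reverse order, with 1.20 and 1.04 in maDC, against 1.57 and 1.28 in imDC, and its remaining pair had a difference of -0.07.

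At other sites the 4 values nearly coincided. The 3′UTR peak of L1cam, a neural adhesion molecule, had 3.84 and 3.86 in maDC, against 3.83 and 3.87 in imDC. Ptk2b, a focal adhesion kinase family member, had 3.50 and 3.39 in maDC, against 3.44 and 3.35 in imDC, and Khsrp, an RNA-binding protein of mRNA decay, had 3.45 and 3.60 in maDC, against 3.44 and 3.50 in imDC. Cdc42ep4 and Serpinb6b were the other pairs of this kind among those with a mean of at least 3. With an SE near 0.7 in the fit, such a pair may still differ by more than its 4 values do.

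Markers of the cell type were checked as far as peaks allow. Of 15 dendritic cell markers, 13 had a maDC peak and 10 an imDC peak. Their 16 pairs had a median difference of 0.02. With no overlap, 1 was higher in maDC (6.25%, against 23.8% over all pairs) and 4 were lower (25%, against 7.66%). Among them Itgax, the CD11c chain used for the selection, had 3.19 and 3.83 in maDC at its stop codon, against 2.30 and 3.25 in imDC, so that the groups overlapped. Of 16 macrophage markers 8 had a maDC peak and 5 an imDC peak, of 13 neutrophil markers 5 and 5, and of 16 lymphocyte markers 0 and 0. A gene without a peak may be expressed without m6A, so this does not measure cell numbers, and the part of other cells in the differences was not tested.

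Peaks without a partner were weaker than paired ones. The 8861 unpaired maDC peaks had medians of 1.68 and 1.83 in replicates 1 and 2, against 2.21 and 2.45 for paired maDC peaks. The 2070 unpaired imDC peaks had 1.56 and 1.47, against 1.95 and 2.17 for paired imDC peaks. Unpaired imDC peaks lay in the 5′UTR or at the start codon in 17.9% and 18.9% of cases and at the stop codon in 6.23%, while unpaired maDC peaks did so in 5.36%, 8.45% and 15.4%. In 56.8% of the unpaired maDC peaks and 74.7% of the unpaired imDC peaks the transcript had a peak elsewhere in the other cell type. The shared sites thus leave out the weaker part of each list, and the lists' own threshold set which peaks entered.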

How the data were processed

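The authors aligned reads to mm10 with TopHat2 2.0.14, scanned the longest isoform of each gene in windows, kept windows that passed edgeR and reached a log2 value of 1 in each replicate, and merged them into peaks. The deposited lists give, per peak, 1 log2 value for each replicate, called jointly over the 2 replicates of a cell type. From these, peaks of maDC and imDC were paired by RefSeq transcript and overlap (at least 0.5 of the shorter peak), with Python 3.11.15, pandas 2.3.3 and NumPy 2.4.6. Differences, maDC minus imDC, were tested with limma 3.58.1 in R 4.3.3 (lmFit, eBayes with trend, 2 replicates against 2, no block), adjusted by Benjamini-Hochberg over all pairs or transcripts. The fit was also run on simulated data with changes larger than any difference named here. That run does not show how differences of the size seen here would be called. Class medians were compared by exact permutation of the 4 replicates. Of 5227 transcripts 5191 were in the GRCm38 annotation. Genome positions were used only for the 93.2% of pairs whose transcript was long enough and had GGACT at each listed motif position. Pairs without a listed motif (62.7% had no GGACT in either peak) were checked for length alone. Of 3860 motif positions listed in maDC peaks of annotated pairs, 3227 were at GGACT in the reference.

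Named pairs are the 10 per direction with the widest gap between cell types, the 5 transcripts per direction by the same rule, up to 4 pairs per gene list by size of difference, genes the study singles out, the 3 transcripts with the most pairs and the 5 pairs with the closest values. Exceptions are marked. Members, the 21 lists and the rules were chosen with earlier results of these data known. Alternatives were a replicate block, centring, no variance trend, other overlap rules, a stricter minimum of 1.5 and each replicate left out. Replicate deviations of maDC and imDC had a correlation of -0.11 across pairs, so replicate numbers were not taken as pairs.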

Additional observations from a re-analysis of the deposited data

How the results depend on the processing

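The count of 0 pairs and 0 transcripts past limma held under centring, no variance trend, each overlap rule, one-to-one pairs and a minimum of 1.5. No paired design is stated. By the labels a replicate block also separates the kits, if columns and libraries carry the same replicate numbers. With this block the counts were 0 pairs and 0 transcripts (276 and 189 at an unadjusted p under 0.05). With the crossed pairing (maDC replicate 1 with imDC replicate 2), added after seeing the data, the counts were 1 pair, at Pcbp2, and 0 transcripts. Leaving out 1 replicate gave 0 to 117 pairs and 0 to 10 transcripts, with calls only without imDC replicate 2, by construction a fit in which imDC replicate 1 alone stands for imDC. The median difference over all pairs then ran from 0.09 to 0.34. By class it ran from 0.19 to 0.57 at the stop codon, 0.19 to 0.47 in the 3′UTR, 0.02 to 0.44 in the CDS, 0.00 to 0.09 at the start codon, -0.21 to 0.0162 in the 5′UTR and -0.0266 to 0.38 in noncoding transcripts. Centring each column on its median gave -0.0629 over all pairs, -0.34 in the 5′UTR, -0.24 at the start codon, -0.0622 in the CDS, 0.0595 in the 3′UTR, 0.11 at the stop codon (0.38 without centring) and -0.0770 in noncoding transcripts. With a minimum of 1.5 the start codon had -0.00051. For maDC replicate 1 minus imDC replicate 2, added after seeing the data, the median was 0.0186 over all pairs, 0.0559 in the 5′UTR, -0.0153 in the CDS, 0.0208 at the stop codon and 0.0770 in the 3′UTR. The causes of these shifts were not tested. Unadjusted calls were 76 higher and 280 lower after centring, against 234 and 89 without it. Of the 20 pairs named by gap, whose direction the choice by gap fixes, Abl2 and Cxcl3 passed without imDC replicate 2. Depth is unknown, which limits the reading of single pairs.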

Other observations

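Pcbp2, an RNA-binding protein, held the highest value of any pair, in the 5′UTR within its first 150 nucleotides. It had 5.41 and 3.35 in maDC, against 8.74 and 5.28 in imDC, with a difference of -2.63 (limma adjusted p = 0.971). It was named after its values were seen. The peaks with both maDC values below both imDC values had a median centre 620 nucleotides from the 5′ end, against 1621 for those with both above and 1300 for all pairs, and 19.4% of them lay in the 5′UTR, against 5.38% of those with both above and 9.40% of all pairs. GGACT was listed in 27.8% of the pairs lower in maDC and in 39.4% of those higher in maDC. A DCreg peak lay at the site in 58.1% of the pairs lower in maDC and in 71.2% of those higher in maDC. These groups of pairs were defined by the values themselves, so the shares are descriptions.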
